A study of Mus musculus with 18 samples.

Results

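The adult haemoglobin genes and the erythroid haem synthesis gene Alas2 are 5 of the 24539 genes in the deposited read count tables of mouse liver. The members are Hba-a1 and Hba-a2, which encode the alpha chain, Hbb-bs and Hbb-bt, which encode the beta chain, and Alas2, and each was taken as the row with that gene name in all 18 libraries. The livers came from 9 male wild-type C57BL/6 mice aged 16 weeks, which had eaten 1 of 3 diets for 8 weeks: a high-fat diet with lycopene, the carotenoid of tomatoes (HFD+LYC), the high-fat diet alone (HFD), or normal chow (control). Each diet had 3 livers, and each liver gave 2 libraries of polyadenylated RNA. One came from ribosome-nascent chain complexes (RNC), which were pelleted through sucrose after lysis with cycloheximide and carry RNA with ribosomes on it. The other came from total RNA (mRNA).

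Haemoglobin is a tetramer of a pair of alpha and a pair of beta chains, each around a haem group, and it carries oxygen in red blood cells. Reticulocytes, the youngest red cells in blood, have lost their nucleus but still hold globin mRNA and ribosomes, and they translate it. Alas2 encodes the erythroid 5-aminolevulinate synthase, which starts haem synthesis in red cell precursors, while the liver's own haem synthesis starts with its paralog Alas1. In an adult liver, globin mRNA is commonly read as a gauge of blood left in the tissue. In such bulk samples fewer red cells and less globin RNA per red cell cannot be told apart.

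The alpha genes lie on chromosome 11 and the beta genes on chromosome 7. In RefSeq's GRCm38.p6, Hba-a1 spans 32283672 to 32284486 and Hba-a2 spans 32296492 to 32297310, both on the plus strand. Hbb-bs spans 103826523 to 103827928 and Hbb-bt spans 103812524 to 103813923, both on the minus strand. Each of these genes has 3 exons. Alas2 lies on the plus strand of the X chromosome from 150547417 to 150570622 and has 11 exons.

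The 200 bases before the annotated start are shown for 4 members, because the globin genes share promoter elements and because the alpha copies cannot be told apart there. Capitals mark each match, on either strand, to 4 short motifs. These are TATAA, the core of the TATA box, then CCAAT, the box of that name, then CACCC, a core read by erythroid Kruppel-like factors, and last GATAA, a core read by GATA factors.
Hba-a1, chr11:32283472-32283671, plus strand: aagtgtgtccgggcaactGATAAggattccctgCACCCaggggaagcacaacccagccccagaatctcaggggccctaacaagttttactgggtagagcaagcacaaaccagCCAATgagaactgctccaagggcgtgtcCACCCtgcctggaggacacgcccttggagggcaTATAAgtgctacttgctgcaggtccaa
Hbb-bs, chr7:103827929-103828128, minus strand: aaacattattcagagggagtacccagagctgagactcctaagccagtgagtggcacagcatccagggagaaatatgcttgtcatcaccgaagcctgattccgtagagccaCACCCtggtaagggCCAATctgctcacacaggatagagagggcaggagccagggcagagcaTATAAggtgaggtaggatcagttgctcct
Hbb-bt, chr7:103813924-103814123, minus strand: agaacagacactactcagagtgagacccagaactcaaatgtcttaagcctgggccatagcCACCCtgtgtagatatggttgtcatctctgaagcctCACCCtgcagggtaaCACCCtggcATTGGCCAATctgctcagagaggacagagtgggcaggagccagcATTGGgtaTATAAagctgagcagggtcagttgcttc
Alas2, chrX:150547217-150547416, plus strand: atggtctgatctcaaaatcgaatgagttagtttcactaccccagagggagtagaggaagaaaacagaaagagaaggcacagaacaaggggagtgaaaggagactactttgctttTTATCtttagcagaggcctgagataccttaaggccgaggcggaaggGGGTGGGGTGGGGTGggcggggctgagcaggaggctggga
The Hba-a2 window shares an unbroken run of 197 bases with that of Hba-a1. TATAA stood 27 bases before the start in Hba-a1, 30 in Hba-a2, 29 in Hbb-bs and 28 in Hbb-bt, and it was not matched in the Alas2 window. All 5 windows held CACCC, as did 45.5% of the 32851 RefSeq promoter windows of the same length. TATAA and CCAAT each matched in 4 of the 5, against 18.5% and 29.3% of all windows, and GATAA matched in 3 of the 5, against 18.1%. Both alpha windows held all 4 motifs, as did 0.481% of all windows. These matches describe letters and are not binding sites.

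The copies of each chain are nearly the same gene. The coding sequences of Hba-a1 and Hba-a2 have 429 bases and differ at 1, and those of Hbb-bs and Hbb-bt have 444 bases and differ at 1. Of 650 windows of 50 bases along the Hba-a1 transcript, 439 (67.5%) also occur in Hba-a2, and 381 of 579 (65.8%) along Hbb-bs also occur in Hbb-bt. No such window of Hba-a1 occurs in Hbb-bs. No source used here says how reads that match both copies were counted, so the split between copies is uncertain, and the sum per chain is given beside it. Alas2 shares 311 of its 2403 exonic bases (12.9%) with exons of Apex2, a DNA repair gene on the opposite strand, and no source used here says whether counting used strand.

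The libraries listed between 4533729 and 12742436 reads. The HFD+LYC RNC libraries stood apart from the rest: they had a read in 8940, 9567 and 10037 genes, against 13324 to 14450 in the other RNC libraries and 13791 to 15332 in the mRNA libraries. Genes seen by a single read numbered 112, 70 and 74 in them, and 614 to 861 in the RNC libraries of HFD and control. They were also less alike: log2 counts of their pairs correlated at 0.571, 0.627 and 0.626, against 0.912 to 0.981 within HFD and within control RNC. Of the mRNA libraries, HFD+LYC mRNA 2 had the fewest genes with a read, 13791, and 189 genes with a single read, against 652 to 798 in the others. It also had the highest haemoglobin share, and the part of its makeup in that share was not tested. Without it Hba-a1 in mRNA had a log2 change of 1.5 (adjusted p 0.201, edgeR) in HFD+LYC against HFD and 1.09 (adjusted p 0.311) against control. Their TMM scaling factors were 0.428, 1.15 and 0.836 in the fit of the RNC libraries. Levels below are counts per 1000000 reads (CPM) after TMM scaling within each kind of library. Every result that compares HFD+LYC RNC libraries rests on this scaling. For the members, values scaled by listed reads alone are given where they change a call or a direction. For other genes, calls on that scale are not given.

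All 5 members had reads in every library. Haemoglobin took a small share of the listed reads, between 0.0316% and 0.141% in the RNC libraries and between 0.0165% and 0.143% in the mRNA libraries. The lowest share, 0.0165%, was in HFD mRNA 1 (95% Wilson interval 0.0157 to 0.0173%), and the highest, 0.143%, in HFD+LYC mRNA 2 (0.14 to 0.146%). The counting intervals were thus far narrower than the differences between livers. In deposited RPKM, which divides by transcript length and so allows levels of different genes to be compared, Hba-a2 averaged 330 ± 140 and Alas2 39.9 ± 10.9 in control mRNA (SD, n = 3). Hbb-bt was the lowest haemoglobin gene there, at 15.6 ± 5.27 RPKM, and Hbb-bs and Hba-a1 averaged 229 ± 96.9 and 81.5 ± 35.4 RPKM. The order in mean RPKM of control mRNA was Hba-a2, Hbb-bs, Hba-a1, Alas2 and Hbb-bt, and of these neighbours Hba-a2 and Hbb-bs overlapped between livers while the others did not. In RNC, Hbb-bs averaged 93.0 ± 22.2 RPKM in HFD+LYC, 629 ± 506 in HFD and 729.7 ± 390 in control. Hba-a2 averaged 304 ± 11.3, 433 ± 288 and 637 ± 235 RPKM in the same order, so the mean of the alpha gene was above that of the beta gene in HFD+LYC RNC and below it in HFD and control RNC.

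The libraries differed more in haemoglobin than in Alas2. Across the 9 mRNA libraries the highest CPM was 11.8 times the lowest for Hba-a1, 7.40 times for Hba-a2, 6.13 times for Hbb-bs and 6.27 times for Hbb-bt, but 2.05 times for Alas2. Across the 9 RNC libraries these ratios were 3.73, 3.83, 11.3 and 6.52 for the same haemoglobin genes in that order, and 2.54 for Alas2.

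**Figure D1:**
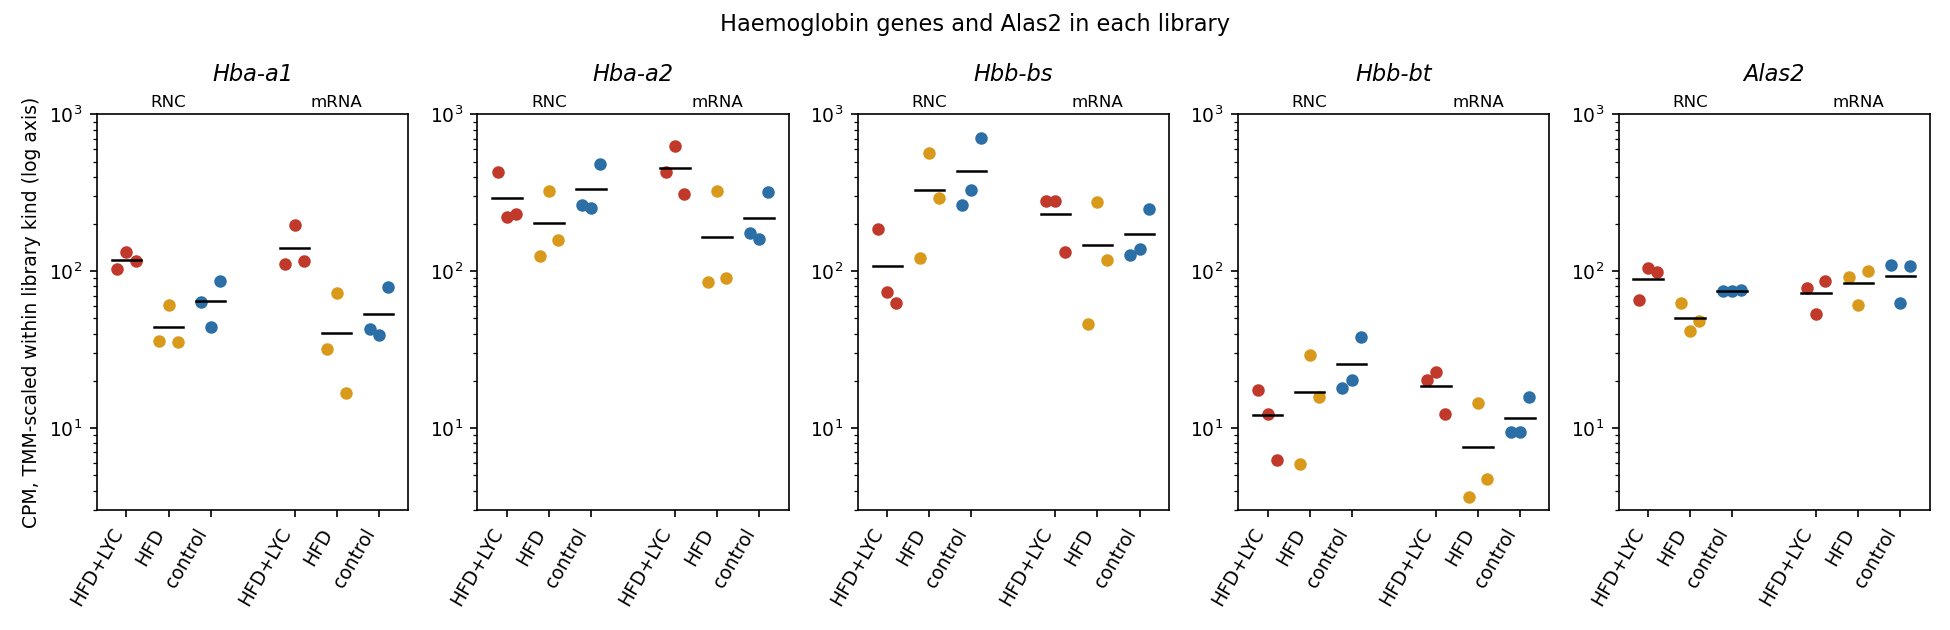
CPM of each of the 5 genes in each library on a log axis, by diet and kind of library; points are single livers and the black line is the mean of 3. Over the 9 mRNA libraries the highest point is 6.13 to 11.8 times the lowest for the haemoglobin genes and 2.05 times for Alas2, while Hba-a1 in HFD+LYC RNC lies between 104 and 132 CPM.

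In total mRNA, no member passed the test in any diet comparison, and livers of the same diet differed as much as diets did. Hba-a1 stood at 111, 196 and 117 CPM in HFD+LYC mRNA, at 32.0, 72.2 and 16.7 CPM in HFD mRNA and at 43.1, 39.0 and 79.0 CPM in control mRNA. The 3 HFD+LYC livers were above all 6 others, and the HFD and control livers overlapped. Its log2 change was 1.81 (SE 0.51) in HFD+LYC against HFD, with an adjusted p of 0.0748 in edgeR's quasi-likelihood test, and 1.40 (SE 0.50) in HFD+LYC against control, with an adjusted p of 0.125. Both missed the threshold of 0.05, while DESeq2 gave adjusted p of 0.00831 and 0.0475 for these changes. Over 19 alternatives the adjusted p ran from 0.00831 to 0.201 against HFD and from 0.0475 to 0.311 against control. Of 12664 genes tested, 2.91% passed in HFD+LYC against HFD and 5.54% in HFD+LYC against control, and groups that do not overlap, with HFD+LYC higher, were found for 16.7% and 14.3%.

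Hba-a2, the more abundant alpha copy, read 427, 629 and 309 CPM in HFD+LYC mRNA, 84.9, 323 and 90.4 CPM in HFD mRNA and 176, 160.1 and 319.8 CPM in control mRNA. HFD liver 2 stood with the lowest HFD+LYC liver and apart from the other two HFD livers. Its log2 changes were 1.45 (SE 0.55, adjusted p 0.14, edgeR) in HFD+LYC against HFD and 1.06 (SE 0.55, adjusted p 0.260, edgeR) in HFD+LYC against control. With the copies summed, the alpha chain changed by 1.53 (adjusted p 0.124) and 1.13 (adjusted p 0.226) in the same comparisons.

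The beta genes differed less. Hbb-bs read 281, 279 and 132 CPM in HFD+LYC mRNA, 45.9, 276 and 117 CPM in HFD mRNA and 127, 139 and 251 CPM in control mRNA, so all 3 diets overlapped. Its log2 change was 0.66 (SE 0.57, adjusted p 0.489, edgeR) in HFD+LYC against HFD and 0.42 (SE 0.57, adjusted p 0.681, edgeR) in HFD+LYC against control. Hbb-bt read 20.3, 22.7 and 12.3 CPM in HFD+LYC mRNA, 3.62, 14.5 and 4.74 CPM in HFD mRNA and 9.46, 9.51 and 15.7 CPM in control mRNA. HFD liver 2 was again the highest HFD liver, and the 3 diets overlapped in pairs. Its log2 changes were 1.28 (adjusted p 0.141) and 0.67 (adjusted p 0.414) in the same comparisons.

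Alas2 differed little between diets in total mRNA. It read 78.4, 53.8 and 86.4 CPM in HFD+LYC mRNA, 91.4, 61.2 and 100.5 CPM in HFD mRNA and 110.3, 63.0 and 108 CPM in control mRNA. In each diet liver 2 was the lowest, and the ranges of the diets overlapped. The log2 changes were -0.21 (adjusted p 0.710) in HFD+LYC against HFD and -0.36 (adjusted p 0.528) in HFD+LYC against control. Liver 2 of HFD and of HFD+LYC, lowest in Alas2, was the highest of its diet in summed haemoglobin mRNA. Control liver 2 was instead the lowest of its diet in summed haemoglobin too, at 348 CPM against 356 and 666 CPM.

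HFD against control gave no call among the members in total mRNA, where 0.0158% of genes (2 of 12664) passed. The log2 changes were -0.41 for Hba-a1, -0.40 for Hba-a2, -0.24 for Hbb-bs, -0.61 for Hbb-bt and -0.15 for Alas2. All 5 were below 0 and each had an interval that spans 0, such as -0.88 to 0.58 for Alas2.

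**Figure D2:**
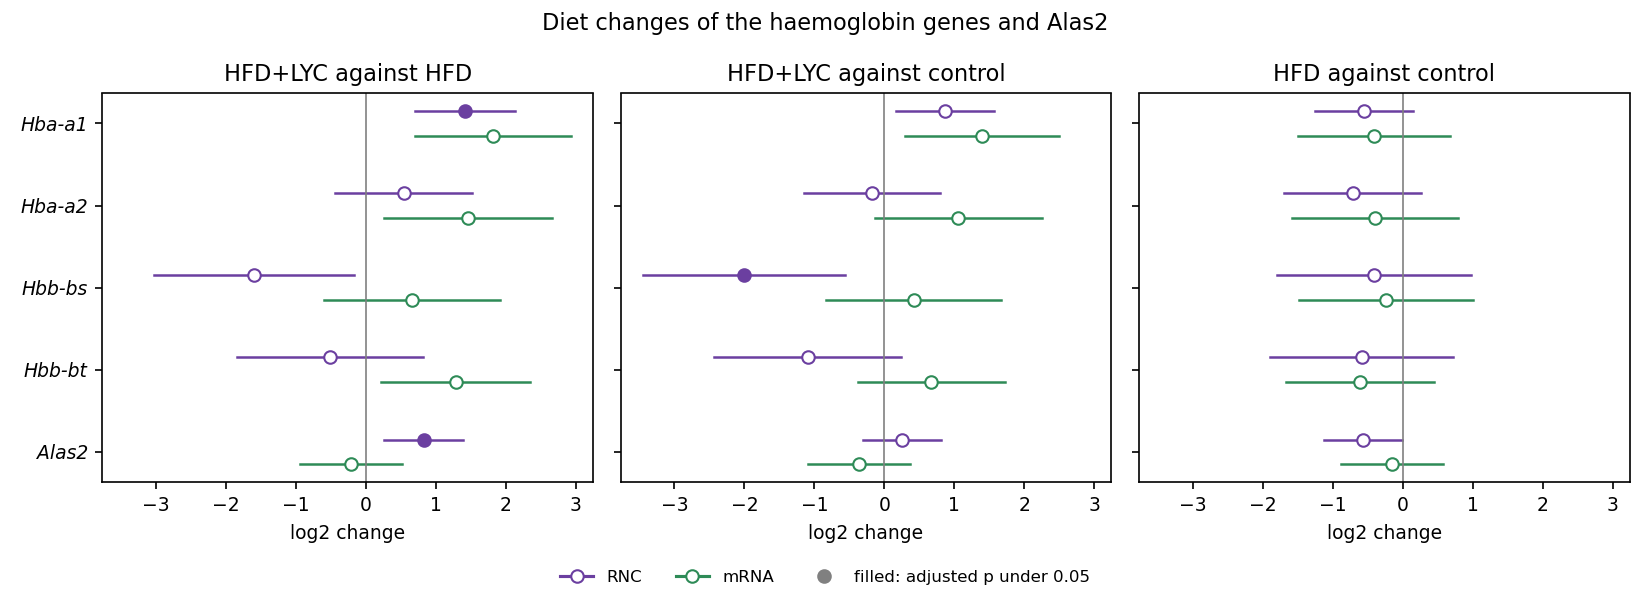
Log2 change of each gene in the 3 diet comparisons, in RNC and in mRNA libraries, with 95% intervals; filled points passed at an adjusted p under 0.05. The filled points are Hba-a1 and Alas2 in RNC, HFD+LYC against HFD, and Hbb-bs in RNC, HFD+LYC against control.

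In the RNC libraries, Hba-a1 and Alas2 rose in HFD+LYC against HFD, and Hbb-bs fell in HFD+LYC against control. These comparisons share the HFD+LYC libraries. Hba-a1 read 104, 132 and 116 CPM in HFD+LYC RNC, 35.9, 60.7 and 35.4 CPM in HFD RNC and 63.6, 44.0 and 86.5 CPM in control RNC. All 3 HFD+LYC libraries were above the 6 others. In HFD+LYC against HFD, Hba-a1 rose by a log2 change of 1.41 (SE 0.32, adjusted p 0.00895, edgeR), with means of 117 ± 14.1 and 44.0 ± 14.5 CPM (SD, n = 3 each). In that comparison 26.8% of 11660 genes passed, 9.34% in the higher direction, and 13.3% had HFD+LYC wholly above HFD, so calls were frequent among genes at large. The median log2 change over all genes was -0.29 there and -0.28 against control, and with listed reads alone it was -0.87 and -0.74. The call was lost when libraries were scaled by listed reads alone (log2 change 0.85, adjusted p 0.262) and when the alpha copies were summed (0.74, adjusted p 0.209), and the adjusted p ran from 0.00023 to 0.262 over 19 alternatives. Against control the log2 change was 0.86 (SE 0.31, adjusted p 0.0705, edgeR), and it passed with DESeq2 (0.91, adjusted p 0.0271) and with upper-quartile scaling (0.96, adjusted p 0.0464), while the alternatives reached 0.939 with the copies summed.

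Hba-a2 did not pass in the RNC libraries. It read 431, 221 and 232 CPM in HFD+LYC RNC, 125, 323 and 159 CPM in HFD RNC and 266, 252 and 480.4 CPM in control RNC, and the diets overlapped. The log2 changes were 0.54 (adjusted p 0.419) in HFD+LYC against HFD and -0.18 (adjusted p 0.813) in HFD+LYC against control. The first turned to -0.26 when scaled by listed reads alone.

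Hbb-bs, the main beta copy, was the member with the largest difference in these libraries. It read 187, 74.2 and 62.9 CPM in HFD+LYC RNC, 122, 569.7 and 292 CPM in HFD RNC and 265, 329.6 and 708 CPM in control RNC. Every HFD+LYC library was below every control library, and HFD+LYC library 1 overlapped the HFD range. In HFD+LYC against control Hbb-bs fell by 2.01 on the log2 scale (SE 0.64, adjusted p 0.0447, edgeR), with means of 108 ± 68.7 and 434 ± 240 CPM (SD, n = 3 each). There 26.3% of genes passed, 17.1% in the lower direction, and HFD+LYC lay wholly below control for 30.6% and wholly above for 14.1%. The call lay near the threshold: it was lost without any 1 of the control RNC libraries (adjusted p 0.0554, 0.0760 and 0.171 for libraries 1, 2 and 3), without HFD RNC 3 (0.0690), without HFD+LYC RNC 2 or 3 (0.0910 and 0.108), with size factors of DESeq2 in edgeR (0.0536), with upper-quartile scaling (0.0587), with only the 6 libraries compared (0.0562) and with the replicate block (0.126). Over 19 alternatives the adjusted p ran from 0.00847 to 0.171. In HFD+LYC against HFD the log2 change was -1.6 (SE 0.63, adjusted p 0.0943, edgeR), and it passed with DESeq2 (-1.57, adjusted p 0.0382) and with listed reads alone (-2.51, adjusted p 0.0147), with a range of 0.0147 to 0.368 over the alternatives.

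Hbb-bt read 17.6, 12.3 and 6.29 CPM in HFD+LYC RNC, 5.88, 29.2 and 15.8 CPM in HFD RNC and 18.1, 20.3 and 38.3 CPM in control RNC. Its HFD+LYC libraries were all below the control libraries and overlapped the HFD libraries. The log2 changes were -0.51 (adjusted p 0.587) against HFD and -1.09 (adjusted p 0.223) against control. With both beta copies summed the change was -1.52 (adjusted p 0.106) against HFD and -1.94 (adjusted p 0.0493) against control.

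Alas2 was higher in the RNC libraries of HFD+LYC than in those of HFD. It read 65.2, 105 and 98.3 CPM in HFD+LYC RNC, 62.4, 41.5 and 48.2 CPM in HFD RNC and 74.4, 74.3 and 76.2 CPM in control RNC. The HFD+LYC and HFD libraries did not overlap, while control lay within the HFD+LYC range. The log2 change against HFD was 0.82 (SE 0.25, adjusted p 0.0359, edgeR), and against control it was 0.26 (adjusted p 0.508). The call against HFD was lost with listed reads alone (0.34, adjusted p 0.647), with no filter on low counts (0.79, adjusted p 0.0526), with the replicate block (0.82, adjusted p 0.0772) and with only the 6 libraries compared (0.85, adjusted p 0.11). It was also lost without any 1 of the control RNC libraries (0.0639, 0.0677 and 0.0697), without HFD RNC 2 or 3 (0.141 and 0.133), and without HFD+LYC RNC 2 or 3 (0.0625 and 0.0726), and the lowest adjusted p of any alternative was 0.00528. The antisense neighbour Apex2 had 1.24, 8.06 and 5.09 CPM in HFD+LYC RNC, against 1.77 to 2.94 CPM in the other RNC libraries. Its part in the Alas2 counts was not tested.

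HFD against control gave no call among the members in the RNC libraries either. Of 11660 genes 0.00858%, 1 gene, passed in edgeR's test, and 214 (1.84%) had an unadjusted p under 0.05. The log2 changes were -0.55 for Hba-a1, -0.72 for Hba-a2, -0.41 for Hbb-bs, -0.58 for Hbb-bt and -0.57 for Alas2. For Alas2 the 3 HFD libraries lay below the 3 control libraries, which 7.2% of genes did, with an adjusted p of 1.

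In the RNC libraries the alpha to beta ratio was higher in HFD+LYC than in the other diets. A red cell needs alpha and beta chains in equal number, and the ratio of alpha to beta reads within a library does not depend on how libraries are scaled. In the RNC libraries it was 2.61, 4.08 and 5.03 in HFD+LYC, 1.26, 0.641 and 0.632 in HFD and 1.16, 0.847 and 0.759 in control. Its means were 3.91 ± 1.22, 0.845 ± 0.362 and 0.923 ± 0.213 (SD, n = 3 each), and the HFD+LYC libraries did not overlap the others. In the mRNA libraries it was 1.79, 2.74 and 2.95 in HFD+LYC, 2.36, 1.36 and 0.878 in HFD and 1.61, 1.34 and 1.49 in control. There HFD+LYC was above control in every liver and overlapped HFD. These ratios were looked at with the members' values known and are given with no test. How often other gene pairs separate in this way was not examined, here or for the shares below. Single genes with HFD+LYC RNC wholly above made up 13.3% against HFD and 14.1% against control, and 30.6% lay wholly below control. The part of the makeup of the HFD+LYC RNC libraries in these ratios was not tested.

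Within a liver the alpha to beta ratio of the RNC library can be set over that of its mRNA library. This quotient was 1.46, 1.49 and 1.71 in HFD+LYC livers, 0.534, 0.471 and 0.719 in HFD livers and 0.725, 0.633 and 0.508 in control livers. Alpha chain reads were thus the larger share in RNC than in mRNA in all 3 HFD+LYC livers, and the smaller share in all 6 others. On deposited RPKM the alpha to beta ratio was between 1.135 and 1.136 times that on reads in every library, and the libraries kept the same order.

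**Figure D3:**
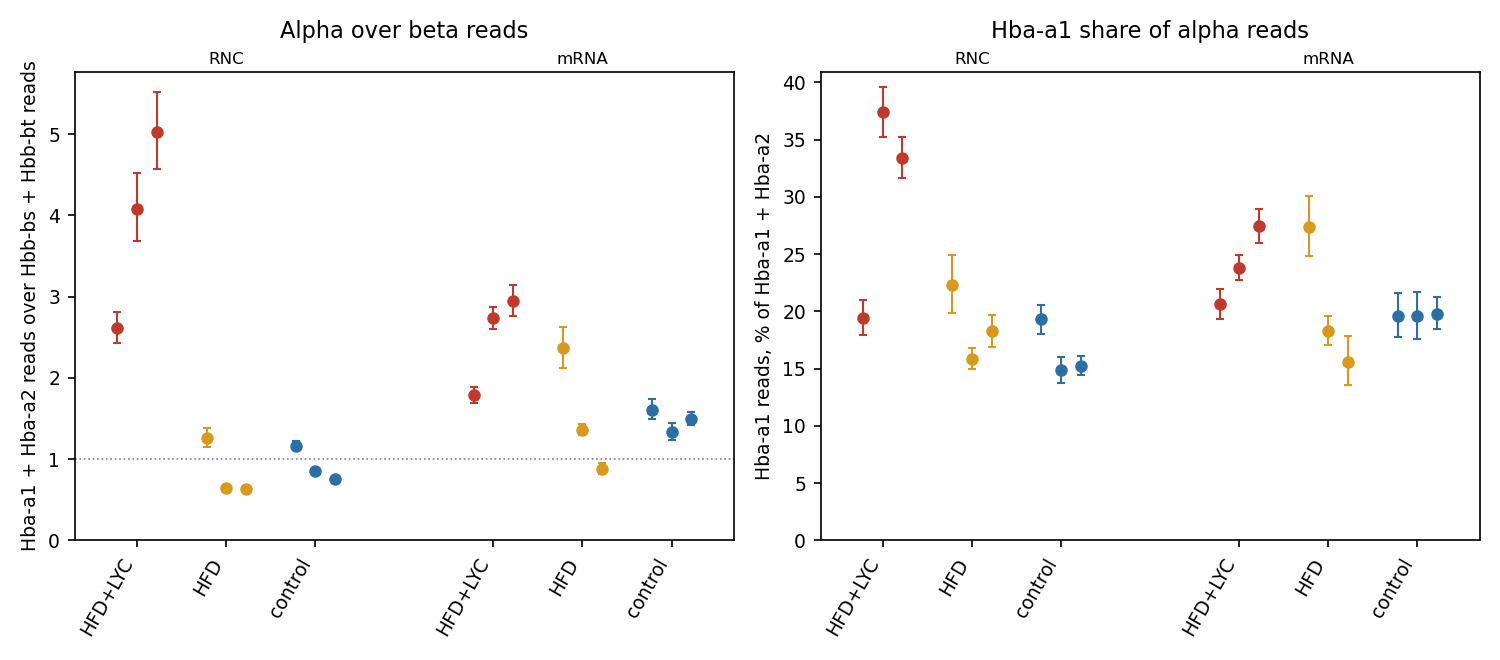
Alpha to beta reads, and Hba-a1 reads as a percentage of alpha reads, in each library, by diet and kind. Bars are 95% Wilson counting intervals, and the dotted line marks an alpha to beta ratio of 1. The HFD+LYC RNC libraries lie at 2.61 to 5.03 for alpha to beta, above all other RNC libraries.

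The split within each chain also differed in the HFD+LYC RNC libraries, with the uncertainty between copies given above. Hba-a1 made up 19.5, 37.4 and 33.4% of alpha reads in HFD+LYC RNC, 22.3, 15.8 and 18.3% in HFD RNC and 19.3, 14.9 and 15.3% in control RNC. Libraries 2 and 3 of HFD+LYC were above all other RNC libraries, and library 1 was not. In mRNA it made up 20.6, 23.8 and 27.5% in HFD+LYC, 27.4, 18.3 and 15.6% in HFD and 19.6, 19.6 and 19.8% in control. Hbb-bt made up 8.59, 14.2 and 9.09% of beta reads in HFD+LYC RNC, 4.60, 4.88 and 5.14% in HFD RNC and 6.38, 5.81 and 5.13% in control RNC. All 3 HFD+LYC RNC libraries were thus above the other RNC libraries in the share of the minor beta copy.

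Haemoglobin and Alas2 did not keep a fixed ratio. Haemoglobin reads were 11.3, 4.18 and 4.25 times those of Alas2 in HFD+LYC RNC, 4.63, 23.7 and 10.4 times in HFD RNC and 8.23, 8.70 and 17.2 times in control RNC. In mRNA the ratio was 10.7, 20.9 and 6.61 in HFD+LYC, 1.82, 11.2 and 2.28 in HFD and 3.23, 5.53 and 6.15 in control. HFD livers 1 and 3 had the lowest ratios in mRNA, and HFD liver 2 stood with the HFD+LYC livers.

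**Figure D4:**
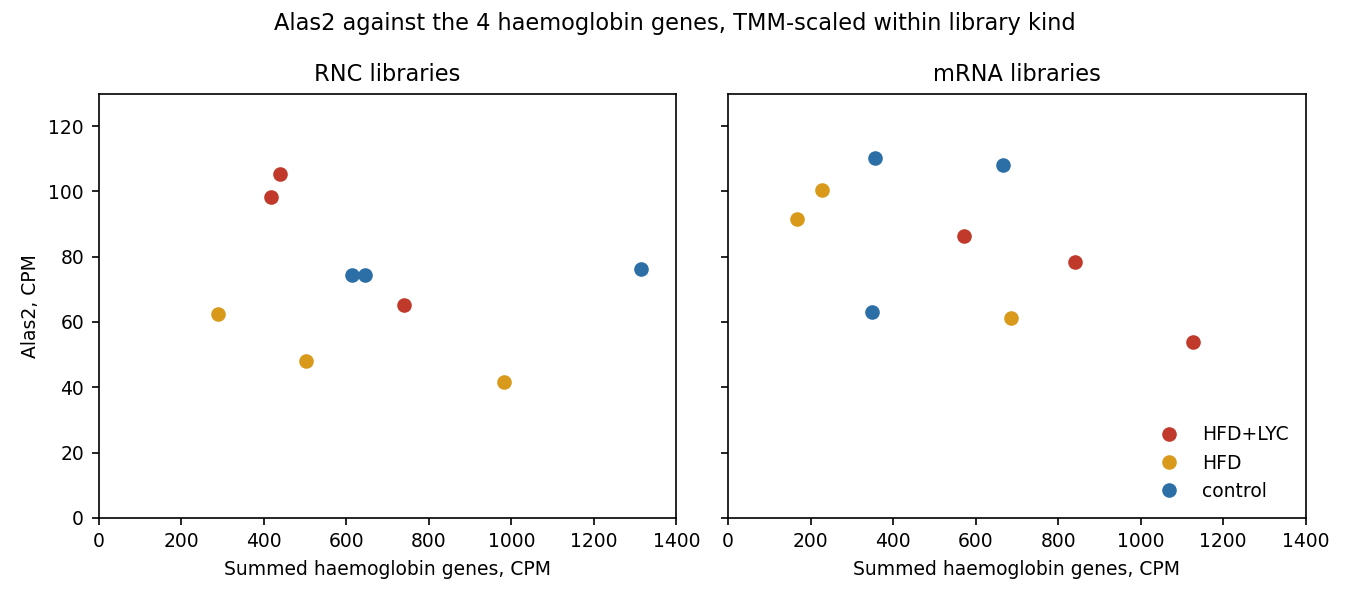
Summed haemoglobin CPM against Alas2 CPM in each library, in RNC and in mRNA, with diets marked; each point is 1 liver. Haemoglobin ranged from 289 to 1314 CPM in RNC and from 166 to 1126 CPM in mRNA, with no matching range in Alas2.

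The next comparison set RNC against mRNA of the same diet, on a common scale of all 18 libraries. It compares a gene's level relative to other genes between the kinds of library. It does not measure the share of a gene's transcripts that sat on ribosomes. In HFD+LYC livers, Alas2 was the only member that passed: it averaged 121 ± 27.6 CPM in RNC and 52.8 ± 13.2 CPM in mRNA (SD, n = 3 each), a log2 change of 1.19 (SE 0.31, adjusted p 0.00517, edgeR). In that comparison 43.4% of 12872 genes passed, 12.8% with RNC higher, and the median over all genes was -0.51. Scaled by listed reads alone, the Alas2 change was 0.02 (adjusted p 0.961), and Alas2 passed under each of the other 27 alternatives, with adjusted p from 7.3e-05. The haemoglobin genes had log2 changes of 0.63 for Hba-a1, 0.28 for Hba-a2, -0.19 for Hbb-bs and 0.28 for Hbb-bt, none past the threshold. With listed reads alone these 4 became -0.68, -1.26, -1.81 and -1.19, and Hbb-bs then passed as lower (adjusted p 0.0252).

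In HFD and control livers the haemoglobin genes had higher values in RNC than in mRNA under every alternative tried, but none passed in edgeR's test with all 18 libraries. The log2 changes of RNC against mRNA in HFD livers were 1.10 for Hba-a1, 1.26 for Hba-a2, 2.13 for Hbb-bs, 2.14 for Hbb-bt and 0.23 for Alas2 (adjusted p 0.101 to 0.703), where 0.101% of genes passed. In control livers they were 1.22, 1.56, 2.28 and 2.10 for the haemoglobin genes in that order and 0.63 for Alas2. None passed there either (adjusted p 0.0628 to 0.192, edgeR), where 2.13% of genes did. With the liver as a replicate block 0.00777% of genes passed in HFD and 0.0155% in control, and again no member. All 5 members had RNC libraries wholly above mRNA libraries in control, as had 25.2% of genes. DESeq2 called Hbb-bs and Hbb-bt higher in RNC in both diets, with adjusted p of 0.0335 and 0.0215 in HFD and of 0.014 and 0.0152 in control. Without 1 library at a time the adjusted p of these genes reached 0.438 in HFD and 0.352 in control, but both beta genes passed in control without any 1 of the HFD+LYC RNC libraries, as did Hbb-bt without HFD RNC 1 (adjusted p from 0.0335). With only the 6 control libraries in the fit, the 4 haemoglobin genes passed in control (adjusted p 0.00415 to 0.0278). With listed reads alone Alas2 turned to -0.45 in HFD and -0.06 in control.

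Liver by liver, the beta genes gave the clearest pattern. The log2 ratio of RNC to mRNA for Hbb-bs was 0.32, -1.01 and -0.17 in HFD+LYC livers, 2.39, 2.02 and 2.27 in HFD livers and 2.01, 2.23 and 2.43 in control livers. HFD and control livers lay within a narrow band, and the HFD+LYC livers were all below it. For Hbb-bt it was 0.70, 0.01 and -0.07 in HFD+LYC livers, 1.68, 1.99 and 2.69 in HFD livers and 1.88, 2.08 and 2.22 in control livers, again with no overlap. A ratio wholly lower in HFD+LYC was found for 24.6% of genes against HFD and for 23.5% against control. Scaled by listed reads alone, Hbb-bs was at -1.86, -2.05 and -1.18 in HFD+LYC livers, at 1.61, 1.28 and 1.71 in HFD livers and at 1.57, 1.19 and 1.73 in control livers.

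The log2 ratio of RNC to mRNA for Hba-a1 was 0.81, 0.32 and 0.89 in HFD+LYC livers, 1.15, 0.72 and 2.04 in HFD livers and 1.51, 1.16 and 1.07 in control livers. Hba-a2 was at 0.92, -0.61 and 0.48 in HFD+LYC livers, 1.55, 0.97 and 1.76 in HFD livers and 1.54, 1.64 and 1.52 in control livers. The HFD+LYC livers lay below the HFD and control livers in Hba-a2, with no overlap, and in Hba-a1 they lay below control and overlapped HFD. Both alpha genes stood above 0 in all 6 HFD and control livers, and with listed reads alone they did so except for Hba-a1 in HFD liver 2, at -0.02. Alas2 was at 0.64, 1.86 and 1.08 in HFD+LYC livers, 0.43, 0.41 and -0.11 in HFD livers and 0.38, 1.23 and 0.43 in control livers, so the HFD+LYC livers were above the HFD livers and overlapped the control livers. The shares of genes above are for ratios wholly lower, and no share is given here for ratios wholly higher. With listed reads alone Alas2 was at -1.54, 0.83 and 0.08 in HFD+LYC livers, -0.35, -0.33 and -0.66 in HFD livers and -0.06, 0.18 and -0.27 in control livers, and all 3 diets overlapped.

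**Figure D5:**
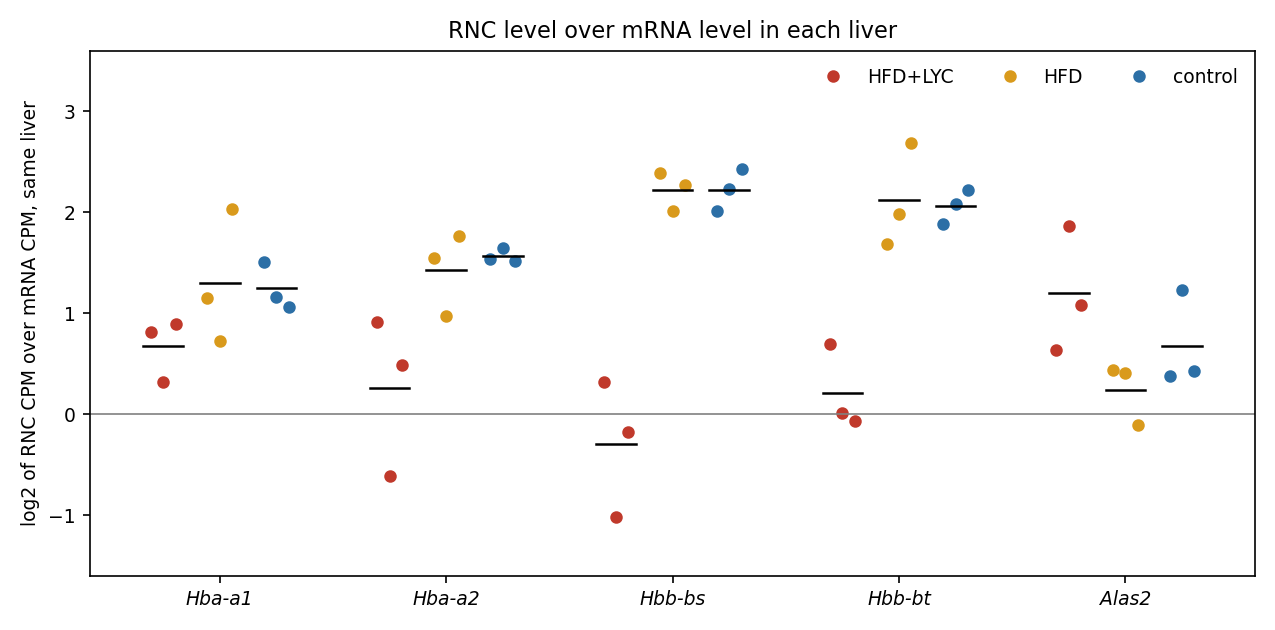
Log2 ratio of RNC to mRNA CPM in each liver for the 5 genes, by diet, on the common scale of 18 libraries; points are livers. Hbb-bs lies between 2.01 and 2.43 in the 6 HFD and control livers and between -1.01 and 0.32 in the HFD+LYC livers.

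Whether that ratio differed between diets was tested as an interaction. For Hbb-bs it was lower in HFD+LYC than in HFD by a log2 change of -2.32 (SE 0.91, adjusted p 0.0943, edgeR), and than in control by -2.47 (SE 0.91, adjusted p 0.0794), so no member passed, where 16.4% and 14.8% of genes did. The mRNA and RNC libraries of a number share a liver, and with the liver as a replicate block Hbb-bs passed in both comparisons (-2.51, adjusted p 0.00672, and -2.51, adjusted p 0.00639), as did Hbb-bt (-1.91, adjusted p 0.0292, and -1.85, adjusted p 0.0352). Without the block, Hbb-bs also passed against HFD without HFD mRNA 2 (-3.13, adjusted p 0.0327) or HFD+LYC RNC 1 (-2.99, adjusted p 0.0327), and against control without HFD+LYC RNC 1 (-3.14, adjusted p 0.028), and Hbb-bt against HFD without HFD mRNA 2 (adjusted p 0.0394). In the fit with the block 12.6% and 10.8% of genes passed. Scaled by listed reads alone, without the block, Hbb-bs passed in both as well (-3.23, adjusted p 0.0199, against HFD and -3.35, adjusted p 0.0181, against control). Over 28 alternatives the adjusted p of Hbb-bs ran up to 0.264 against HFD and 0.213 against control, and that of Hbb-bt up to 0.379 and 0.352. The other members' ratios did not pass: the log2 change in HFD+LYC against HFD was -0.47 for Hba-a1, -0.97 for Hba-a2 and 0.96 for Alas2, and in HFD+LYC against control it was -0.58, -1.27 and 0.56 in that order of genes. DESeq2 alone called Alas2, against HFD (adjusted p 0.0284, with 0.59 the highest over the alternatives). The median over all genes was -0.41 and -0.37 in these comparisons. HFD against control gave no call over any gene (0%), with 20 genes (0.155%) at an unadjusted p under 0.05 in edgeR's test, and DESeq2 called 1 gene, not a member.

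Other red cell genes set the haemoglobin values in context. Of the further globin genes, the embryonic Hba-x, Hbb-y, Hbb-bh1 and Hbb-bh2 had 0 reads in all 18 libraries, which allows up to 0.0184 CPM over the 162826543 listed reads. Hbb-b1, the beta copy annotated from other strains' haplotype, had 14 reads in all. Genes of the red cell membrane varied in their reads over all 18 libraries: Slc4a1, the band 3 anion exchanger, had 32, Epb42 had 7 and Rhag had 2, while Epb41 had 15211, Aqp1 5413 and Cd47 2801, genes that many cell types use. The erythroid factor Gata1 had 0 reads, the erythroid factor Klf1 had 349 and the carbonic anhydrase Car1 had 956.

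Of the red cell membrane and cytoskeleton list, 7 of 21 genes could be tested, and several of those are used by many cell types. No gene of any of the 13 lists passed in HFD against control in either kind of library. In mRNA, Tmod1, an actin-capping tropomodulin, was higher in HFD+LYC than in control (log2 change 1.51, adjusted p 0.0282, edgeR). In RNC, Tmod1 (1.6, adjusted p 0.0384) and Epb41, protein 4.1 (0.99, adjusted p 0.0367), were higher in HFD+LYC than in control. Aqp1, a water channel also found in endothelium, was lower there (-1.22, adjusted p 0.00828) and lower than in HFD (-0.89, adjusted p 0.0346). The list's median log2 change in RNC was 0.04 against HFD and -0.26 against control, beside -0.29 and -0.28 over all genes.

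Among 16 tested genes of erythroid transcription and maturation in mRNA, Tmcc2, a transmembrane coiled-coil protein, was higher in HFD+LYC than in HFD (1.45, adjusted p 0.0448). In HFD+LYC against control, Tmcc2 (2.41, adjusted p 0.00553), the transcription factor Gata2 (1.86, adjusted p 0.0437) and its cofactor Ldb1 (1.34, adjusted p 0.0421) were higher. In RNC, 13 could be tested: 1 was higher and 3 lower in HFD+LYC than in HFD, and 1 was higher and 4 lower than in control. Of all genes tested, 26.8% and 26.3% passed in these comparisons. The erythroid factor Klf1, the erythroid carbonic anhydrase Car1 and the receptor Kit passed as lower in both, with 0 reads in every HFD+LYC RNC library. In HFD RNC, Klf1 lay between 0.48 and 1.91 CPM and Car1 between 3.56 and 3.92 CPM, and in control RNC Klf1 lay between 0.48 and 1.5 CPM and Car1 between 6.88 and 9.39 CPM. The same 3 genes had reads in the HFD+LYC mRNA libraries, for instance 7.47 to 16.4 CPM for Car1. Of the 26 genes of this list in the counts, 11 had a read in HFD+LYC RNC, 21 in HFD RNC and 22 in control RNC. The HFD+LYC RNC libraries had a read in fewer genes at large, as given above. Tfrc, the transferrin receptor, was lower in HFD+LYC RNC than in control RNC (-1.75, adjusted p 0.0255).

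Genes of haem synthesis differed in both directions. Alas1, the liver enzyme for the same step, averaged 1099 ± 582 CPM in HFD+LYC mRNA, 348 ± 121 CPM in HFD mRNA and 121 ± 28.4 CPM in control mRNA (SD, n = 3 each). It passed in HFD+LYC against control in mRNA (3.18, adjusted p 0.00644) and in RNC (2.10, adjusted p 0.0145). In RNC, of 16 tested genes of haem synthesis and mitochondrial iron import, 3 were higher and 3 lower in HFD+LYC than in HFD, and 4 were higher and 4 lower than in control. Over all genes, 26.8% and 26.3% passed there. Alad and Cpox, enzymes of the middle steps, were higher in both comparisons. Fech, ferrochelatase, which puts iron into haem, was lower in both (-0.93, adjusted p 0.0149, and -1.09, adjusted p 0.00742). Slc25a37, the mitochondrial iron importer mitoferrin 1, was lower than in control (-1.10, adjusted p 0.0353).

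Of 14 tested genes that clear haemoglobin and haem, 4 were higher and 1 lower in HFD+LYC RNC than in HFD RNC and than in control RNC, and none passed in mRNA. Hp, haptoglobin, which binds free haemoglobin, averaged 14713 ± 9834 CPM in HFD+LYC RNC, 1847 ± 390 CPM in HFD RNC and 1925 ± 379 CPM in control RNC. Hpx, haemopexin, which binds free haem, averaged 15723 ± 11342 CPM, 2468 ± 312 CPM and 2981 ± 724 CPM in the same order. Both passed in both comparisons (adjusted p 0.0037 to 0.00886). These are abundant secreted hepatocyte proteins. Of 10 hepatocyte markers 3 were also higher in HFD+LYC RNC in both comparisons and the other 7 did not pass, where 26.8% and 26.3% of all genes passed. Their summed level, most of it from Alb, Apoa1 and Apoa2, was 138076 to 438277 CPM in HFD+LYC RNC, 89433 to 116791 CPM in HFD RNC and 103190.0 to 118598 CPM in control RNC. In the hepcidin and erythropoietin list 3 of 11 were higher and 1 lower in each of these comparisons.

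Summed markers of neutrophils, platelets and lymphocytes overlapped between all 3 diets in mRNA. Summed neutrophil and granulocyte markers lay at 95.2 to 149 CPM in HFD+LYC mRNA, 100.4 to 313 CPM in HFD mRNA and 63.7 to 219 CPM in control mRNA. Most of that sum was Wfdc21, with a mean of 135 CPM over the mRNA libraries, before Csf3r at 10.5 CPM, so it mainly follows 1 gene. Summed platelet markers lay at 25.9 to 51.6 CPM, 18.8 to 30.9 CPM and 21.9 to 27.5 CPM in the same order of diets, and lymphocyte markers at 14.2 to 18.5 CPM, 13.8 to 31.9 CPM and 15.2 to 19.4 CPM. Some other lists did not overlap between HFD+LYC and either other diet in mRNA. Red cell membrane genes summed to 309 to 445 CPM, 197 to 224 CPM and 185 to 239 CPM in that order. Sums for erythroid maturation, haem synthesis and endothelium were wholly higher in HFD+LYC too. Monocyte markers, mostly Fn1, summed to 327 to 650 CPM, 736 to 917 CPM and 787 to 984 CPM. For single genes, HFD+LYC lay wholly higher in 16.7% against HFD and 14.3% against control. In mRNA, 1 of 6 neutrophil genes passed in each HFD+LYC comparison, Cxcr2, a chemokine receptor (4.10, adjusted p 0.0122, and 4.10, adjusted p 0.00742). Of 6 platelet genes, Itgb3 passed against control (1.78, adjusted p 0.0298), and no lymphocyte or monocyte gene passed. S100a8 and S100a9, abundant neutrophil transcripts, and the platelet genes Ppbp and Pf4 did not pass in any diet comparison, and neither did Hmox1 and Cd163, of haem breakdown and haemoglobin uptake, or the hepcidin gene Hamp. In RNC, 3 of 8 lymphocyte and 4 of 6 monocyte markers were lower in HFD+LYC in both comparisons, several of them at 0 reads there. Among all genes, 26.8% passed against HFD and 26.3% against control, and the HFD+LYC RNC libraries had a read in fewer genes than the others. In RNC no platelet gene of 4 passed, and Cxcr2 was the single neutrophil gene of 6 that did, as higher in both.

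Cells that line and patrol the sinusoids were measured with the same lists. In mRNA, Vsig4, a Kupffer cell receptor, was lower in HFD+LYC than in HFD (-2.50, adjusted p 0.0449), and it was the single Kupffer cell marker of 13 that passed. All 13 were below 0 there, with a median log2 change of -1.18, beside -0.04 over all genes. Against control 11 were below 0 and 2 above. In HFD against control all 13 were above 0, with a median of 0.55, and none passed. Of 13 endothelial markers, Stab1, a scavenger receptor, was higher in HFD+LYC than in HFD (1.66, adjusted p 0.0498) and than in control (1.77, adjusted p 0.0292), and Eng, endoglin, was higher than in control (1.17, adjusted p 0.0292). The endothelial list was split in direction, with 6 above 0 and 7 below against HFD, and 8 above and 5 below against control. Over all genes 2.91% and 5.54% passed in these mRNA comparisons. In RNC, 5 Kupffer and 2 endothelial markers were lower in HFD+LYC than in HFD, and 2 and 2 than in control, where 26.8% and 26.3% of all genes passed. The part of these cells in the haemoglobin values was not tested. Every list gene that passed in a diet comparison kept its direction when scaled by listed reads alone. Only group means were compared on that scale, so it does not show whether these genes would still pass.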

How the data were processed

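Reads of 18 mouse liver libraries (9 livers, mRNA and RNC) were taken as the authors' deposited read counts per gene. The deposited RPKM were used only to compare levels between genes. Per the labels' protocols, mapping was to RefSeq RNA. The submitters' processing notes name bcl2fastq and mm10. No source used here names the aligner, the rule for reads that match several genes or the use of strand.

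Genes were filtered with filterByExpr (minimum count 10, minimum total 15), scaled with TMM and tested with edgeR 4.0.16 robust quasi-likelihood fits in R 4.3.3, two-sided, with Benjamini-Hochberg adjustment over all genes tested and a threshold of 0.05. The mRNA fit held 9 libraries and 12664 genes and the RNC fit 9 libraries and 11660 genes. The fit of both kinds held 18 libraries and 12872 genes, and CPM differ between fits. Mean Hba-a1 in HFD+LYC RNC was 117 CPM in the RNC fit and 158 CPM in the fit of both kinds. In HFD+LYC mRNA it was 142 CPM in the mRNA fit and 102 CPM in the fit of both kinds. The log2 ratios of RNC to mRNA printed per liver had nothing added before log2. For the shares of genes whose ratios do not overlap between diets, 0.5 CPM was added before log2. All 5 members passed the filter in all 3 fits. Depth was 4533729 to 12742436 listed reads per library; intervals (Wilson, 95%) and floors (3 reads) cover counting error only. Alternatives used DESeq2 1.42.0 and limma 3.58.1 (voom). The fits were tested on simulated data. Python 3.11.15, pandas 2.3.3, numpy 2.4.6, scipy 1.17.1 and matplotlib 3.10.9 were used for descriptions and figures.

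Groups and replicate numbers came from sample titles. The mRNA and RNC libraries of a diet and number carry the same animal code in the deposited names, so they come from the same liver. The correlation of their deviations from group means ran from -0.0475 to 0.604 and was over 0.1 in 3 of 9 pairs. Nothing beyond the animal codes describes how replicates were handled.

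The members and the 13 gene lists were chosen with earlier results of these data known. Genes named were the members, listed genes that passed, the 3 most abundant genes of each list, a fixed set of haem, iron and blood cell genes, and the 8 genes most like summed haemoglobin. Promoters are RefSeq's in GRCm38.p6 (5 of 5 members matched), and transcripts and exon overlap come from GENCODE M21. Hbb-bh0, Hbb-bh3, Ahsp, Flvcr1, Hjv and Fam132b were not analysed here.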

Additional observations from a re-analysis of the deposited data

How the results depend on the processing

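Of 1410 recomputed log2 changes of members, 1306 kept their direction and side of the threshold, 38 passed only in the alternative, 24 no longer passed and 42 turned direction; most that turned were near 0. Where not stated, the cause was not tested. The count of members that passed changed as follows. With DESeq2 it was 1 in mRNA for HFD+LYC against HFD and 1 against control, 3 in RNC for HFD+LYC against HFD and 2 against control, 2 for RNC against mRNA in HFD and 2 in control, and 1 for the ratio in HFD+LYC against HFD. With DESeq2 size factors in edgeR it was 0 in RNC for HFD+LYC against control. With listed reads alone it was 1 in RNC for HFD+LYC against HFD and 1 for the ratio in HFD+LYC against HFD and against control. With no filter it was 1 in mRNA and 1 in RNC for HFD+LYC against HFD. With only the 6 libraries compared it was 1 in RNC for HFD+LYC against HFD and 0 against control, and with only the 6 libraries of the diet it was 4 for RNC against mRNA in control. With the copies summed it was 1 in RNC for HFD+LYC against HFD and 2 against control, where each copy takes the value of its sum.

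With the replicate block it was 1 in mRNA for HFD+LYC against HFD (Hba-a1, log2 change 1.89, adjusted p 0.0283), 1 in RNC for HFD+LYC against HFD, 0 in RNC against control, and 2 for the ratio in HFD+LYC against HFD and against control; the block changed no other member's call. Within a kind of library the numbers are only shared: deviations of same-numbered libraries correlated at -0.47 to 0.51 in mRNA (7 of 9 pairs over 0.1) and at -0.09 to 0.37 in RNC (2 of 9). Leaving out 1 library at a time gave 1 to 3 members in RNC for HFD+LYC against HFD, 0 to 1 against control, 0 to 2 for RNC against mRNA in control, 0 to 2 for the ratio in HFD+LYC against HFD and 0 to 1 against control. For the ratio, Hbb-bs passed in HFD+LYC against HFD without HFD mRNA 2 (-3.13) or HFD+LYC RNC 1 (-2.99), and against control without HFD+LYC RNC 1 (-3.14).

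Directions turned as follows. With listed reads alone Hba-a2 in RNC for HFD+LYC against HFD was -0.26 and Alas2 against control -0.12, and for RNC against mRNA in HFD+LYC Hba-a1 was -0.68, Hba-a2 -1.26 and Hbb-bt -1.19, with Alas2 at -0.45 in HFD and -0.062 in control. For the ratio in HFD against control, Hba-a1 was 0.076 with limma-voom and 0.049 with the replicate block, Hbb-bs 0.0018 with the block, and Hbb-bt -0.14 with copies summed. For RNC against mRNA in HFD+LYC, Hbb-bs was 0.075 with upper-quartile scaling and Hbb-bt -0.15 with copies summed. Hba-a2 in RNC for HFD+LYC against control was 0.052 with copies summed. Without 1 library at a time, the ranges that span 0 were -1.08 to 0.19 for Hbb-bs and -0.37 to 0.032 for Alas2 in mRNA, HFD against control; -1.07 to 0.15 for Hbb-bs in RNC, HFD against control; -0.92 to 0.12 for Hbb-bt in RNC, HFD+LYC against HFD; -0.55 to 0.17 for Hba-a2 in RNC, HFD+LYC against control; -0.10 to 0.58 for Hba-a2, -0.85 to 0.086 for Hbb-bs and -0.11 to 0.60 for Hbb-bt, RNC against mRNA in HFD+LYC; and, for the ratio in HFD against control, -0.53 to 0.58 for Hba-a1, -0.80 to 0.60 for Hba-a2, -0.81 to 0.68 for Hbb-bs and -0.59 to 0.88 for Hbb-bt.

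The number of genes that passed moved more: over the alternatives that keep every library it was 2 (1 to 41) in mRNA for HFD against control, 368 (135 to 1491) for HFD+LYC against HFD and 701 (384 to 1628) against control; 1 (0 to 33), 3120 (1790 to 4088) and 3072 (2032 to 4061) in RNC in the same order; and for RNC against mRNA 5586 (2179 to 7642) in HFD+LYC, 13 (1 to 1144) in HFD and 274 (2 to 3882) in control. Without 1 library at a time these were 1 to 3, 66 to 606 and 91 to 952 in mRNA, 0 to 2, 2107 to 4633 and 2103 to 4605 in RNC, and 4546 to 6330, 0 to 528 and 0 to 1441 for RNC against mRNA. On RPKM the haemoglobin to Alas2 ratio was 3.26 to 3.45 times that on reads, and the alpha to beta ratio in control mRNA averaged 1.68 in place of 1.48. Hbb-bt had the fewest reads of the members, 35 to 494 a library.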

Other observations

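Among 11568 genes tested in both kinds of library, the likeness to summed haemoglobin was at most 0.67 outside the haemoglobin family. The haemoglobin genes are part of that sum, and the same measure was 0.95 for Hbb-bt, 0.88 for Hba-a2, 0.82 for Hbb-bs and 0.20 for Hba-a1, the last set by the RNC libraries. Likeness was measured as the smaller of the Pearson r over the 9 RNC and over the 9 mRNA libraries, on log2 of CPM plus 1. The 8 most alike were Fam47e (0.67), the alanine aminotransferase gene Gpt (0.67), the glutaminase gene Gls2 (0.67), the leucyl-tRNA synthetase gene Lars (0.66), the splicing factor gene Snrpa1 (0.65), the helicase gene Fbxo18 (0.64), the cytoskeletal gene Shroom3 (0.62) and the kinase gene Stk40 (0.61). None of them belongs to the erythroid lists. With Spearman's coefficient in place of Pearson's, 2 of the 8 were again among the top 8. Alas2 stood at place 8826, with -0.27 in RNC and -0.50 in mRNA. These coefficients are a description over libraries that share diets and scaling.

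Of the 11 other globin genes in the counts, 2 could be tested in the RNC libraries, Mb and Cygb. Myoglobin, Mb, which stores oxygen in muscle, lay at 2.95 to 10.3 CPM in HFD+LYC RNC, had 0 reads in HFD RNC and at most 0.53 CPM in control RNC. In total mRNA it was at or near 0 in every diet. Cytoglobin, Cygb, a globin of hepatic stellate cells, averaged 16.0 ± 8.18 CPM in HFD+LYC RNC, 4.21 ± 0.64 CPM in HFD RNC and 5.25 ± 1.3 CPM in control RNC (SD, n = 3 each). Its log2 changes were 1.92 (adjusted p 0.0156, edgeR) in HFD+LYC against HFD and 1.61 (adjusted p 0.0333, edgeR) in HFD+LYC against control. Over all genes 26.8% passed in RNC against HFD, 9.34% as higher, and 26.3% passed against control.

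The most abundant genes of each list, by mean CPM over the mRNA libraries, were as follows. Cygb, Ngb and Mb led the other globins, at 9.48, 0.30 and 0.01. Epb41, Aqp1 and Cd47 led the red cell membrane list, at 169.8, 37.8 and 13.1. Prdx2, Zfpm1 and Bnip3l led erythroid maturation, at 99, 62.6 and 53.0. Alas1, Alad and Slc25a39 led haem synthesis, at 522, 233 and 233. Ftl1, Hp and Hpx led clearance, at 3658, 3074 and 2268. Trf, Hamp and Tfr2 led the hepcidin list, at 5415, 962 and 454. Among blood cells, Itga2b, Clec1b and Itgb3 led the platelet list, at 9.98, 7.46 and 3.18, and Wfdc21, Csf3r and Cxcr2 led the neutrophil list, at 135, 10.5 and 4.84. Lck, Ccl5 and Cd4 led the lymphocyte list, at 2.33, 1.95 and 1.55, and Fn1, which hepatocytes also secrete, led the monocyte list at 734, before Plac8 at 5.12 and Ccr2 at 2.66. Clec4f, Slc40a1 and Cd5l led the Kupffer list, at 153, 78.8 and 47.5. Stab1, Eng and Stab2 led the endothelial list, at 142, 103.7 and 79.7. Alb, Apoa2 and Apoa1, all plasma protein genes, led the hepatocyte list, at 40625, 13063 and 10968.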
